A study of Mus musculus with 6 samples.

Results

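The 10 genes described belong to the cellular oxygen response: the hypoxia-inducible factor (HIF) genes Hif1a and Epas1, the oxygen-sensor genes Egln1 and Egln3, and the target genes Vegfa, Ndrg1, Ankrd37, P4ha1, P4ha2 and Bnip3, none of which encodes a glycolytic enzyme. They were picked by symbol from 24391 annotated genes, and all 10 were found and passed the filter on low counts. The choice was made with the values of the MAX restored against control comparison, and of control 1 against the other controls, already known. Those values are therefore given here as descriptions, and nothing is tested with them. The cells were mRPMaxKO, a line from a mouse lung tumour of the RPMax-/- genotype on a mixed 129/SvJ and C57BL/6 background. RP stands for deletion of Rb1 and Trp53, as in mouse models of small cell lung cancer, and all 6 libraries share the loss of Rb1, Trp53 and Max. A polyclonal population below passage 20 had received a doxycycline-inducible lentivirus and was puromycin selected, and the protocol, the same for every library, gives 4 days of doxycycline. Of the 6 RNA-seq libraries, 3 were controls and 3 had MAX, the DNA-binding partner of the MYC proteins, put back. Whether the control cells carried an empty vector or were given doxycycline is not in the labels, and neither is the oxygen tension. Separate cultures for the libraries within a group are not recorded either, so the spread and the p-values between libraries may be technical.

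HIF is a heterodimer of an oxygen-labile alpha subunit, encoded by Hif1a or Epas1 (HIF-2 alpha), and a stable beta subunit, ARNT. In the presence of oxygen the prolyl hydroxylases of the EGLN family modify the alpha subunit, and the VHL ubiquitin ligase then marks it for destruction, so most of its control lies in protein stability rather than in transcript level. When oxygen is low, HIF binds a short core motif, ACGTG or GCGTG, near its target genes. Egln3 is itself a target and part of a feedback loop. MAX with MYC binds the E-box CACGTG, which holds the HIF core ACGTG on both strands. Ndrg1 is named for its regulation downstream of N-MYC.

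RefSeq promoter windows on GRCm38.p6 were in hand for 8 of the 10 members, and the 250 bases before the transcription start are shown for the 5 in which motif matches are of most interest: the 2 members with an E-box, Bnip3 and Hif1a, and the 3 targets with at least 3 HIF cores but no E-box. Sequences run 5′ to 3′ on the strand of the gene, with every match to ACGTG or GCGTG on either strand in capitals. Matches that overlap form a single run, so CACGTG in capitals is the E-box.
Bnip3: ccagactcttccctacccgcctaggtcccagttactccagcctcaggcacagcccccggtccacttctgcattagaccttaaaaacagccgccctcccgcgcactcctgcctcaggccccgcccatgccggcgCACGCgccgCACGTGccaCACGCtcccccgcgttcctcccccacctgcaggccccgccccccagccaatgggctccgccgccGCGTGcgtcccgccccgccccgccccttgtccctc
Hif1a: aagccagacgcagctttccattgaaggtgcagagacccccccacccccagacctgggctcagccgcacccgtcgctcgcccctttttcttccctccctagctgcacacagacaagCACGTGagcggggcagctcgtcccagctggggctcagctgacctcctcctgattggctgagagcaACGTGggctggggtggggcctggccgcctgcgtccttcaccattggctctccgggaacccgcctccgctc
Ankrd37: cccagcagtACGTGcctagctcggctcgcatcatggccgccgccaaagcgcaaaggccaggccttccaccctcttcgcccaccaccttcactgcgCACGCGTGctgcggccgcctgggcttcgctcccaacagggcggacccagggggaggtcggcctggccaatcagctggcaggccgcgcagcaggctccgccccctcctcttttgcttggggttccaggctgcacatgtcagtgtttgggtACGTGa
P4ha1: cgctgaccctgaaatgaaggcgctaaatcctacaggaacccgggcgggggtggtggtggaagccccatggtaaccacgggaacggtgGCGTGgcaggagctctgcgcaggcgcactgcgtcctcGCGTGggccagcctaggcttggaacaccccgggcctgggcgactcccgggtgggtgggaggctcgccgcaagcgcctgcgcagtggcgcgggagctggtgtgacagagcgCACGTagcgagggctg
P4ha2: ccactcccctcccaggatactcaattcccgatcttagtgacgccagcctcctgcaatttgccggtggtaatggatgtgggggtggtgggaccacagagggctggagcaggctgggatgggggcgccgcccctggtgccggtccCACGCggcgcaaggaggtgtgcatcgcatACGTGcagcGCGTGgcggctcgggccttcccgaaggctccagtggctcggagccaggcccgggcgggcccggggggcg
These windows lie at chr7:138909507-138909756 (minus strand) for Bnip3, chr12:73907617-73907866 (plus) for Hif1a, chr8:45999851-46000100 (minus) for Ankrd37, chr10:59323046-59323295 (plus) for P4ha1 and chr11:54100674-54100923 (plus) for P4ha2.

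An ACGTG or GCGTG on either strand was present in the 250 upstream bases of 7 of the 8 members with a window, and in 38.6% of all 32851 RefSeq mouse promoters of the same length. Over all promoters, ACGTG was found in 16.6%, GCGTG in 28.2% and the E-box CACGTG in 6.02%. The members' windows were also richer in G and C, with a median of 68.6% against 52.4% over all promoters, and both HIF cores contain CpG. In Bnip3 the E-box begins 108 bases before the start, with a GCGTG match on the opposite strand to either side, at 117 and 99 bases. In Hif1a it begins 135 bases before the start and a further ACGTG lies at 70 bases. In Ankrd37 an ACGTG lies 6 bases before the start, and in P4ha2 an ACGTG at 78 bases and a GCGTG at 69 bases are neighbours. Egln1 and Egln3 also had ACGTG, while neither core nor the E-box was found before the most upstream of the 2 Vegfa starts listed. Before the other Vegfa start, searched after the data were seen, there was 1 ACGTG and 1 GCGTG but no E-box. For Hif1a, Egln3 and the most upstream Vegfa start, the first bases past the start matched no Gencode transcript of the gene on either strand. The distances in Hif1a therefore rest on the RefSeq start alone. A match is a description of letters, not of binding, which was not measured.

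Each library held between 10046899 and 11925909 counts. Levels are given as CPM, a gene's counts scaled to a common library size after adjustment by the trimmed mean of M values (TMM). The targeted gene, Max, was 20.9-fold higher in the MAX restored libraries than in the controls. Its transcript was still counted in controls 1, 2 and 3, at 62.9, 66.3 and 61.4 CPM. Control 1 stood apart from the other controls: Rn45s, the ribosomal RNA precursor, took 0.996% of its counts and between 0.109% and 0.187% in controls 2 and 3. All 10 neuroendocrine markers examined were expressed, with a summed level between 8960 and 9684 CPM over the 6 libraries. Of 10 endothelial markers, relevant because Epas1 and VEGF receptors are strongly expressed in endothelium, 3 (Cdh5, Tie1 and Cldn5) were at 0 in every library, while the clotting factor gene Vwf alone accounted for nearly all of the list's 419 to 582 CPM. Fibroblast markers summed to at most 7.49 CPM and immune markers to at most 3.42 CPM in any library. In such bulk samples, fewer cells expressing a gene and less RNA per cell cannot be told apart.

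With MAX restored, the members spread over a graded range, from Ndrg1 (2.13-fold lower) and Epas1 (1.93-fold lower) to Egln1 and Hif1a, whose groups overlapped. In the fit over all genes, 7 of the 10 were called lower and 0 higher, where 32.3% of the 12664 tested genes were called lower and 31.2% higher. By edgeR's quasi-likelihood test 0 members were higher at an unadjusted p under 0.05. The share of all genes at that threshold was not counted, so this 0 has no background beside it. DESeq2 and limma voom also called 0 members higher, where over all genes they called 3444 and 3949 higher. These tools read the same counts, so their results add no separate evidence. Without control 1, which stands apart, 6 were called lower and 2, Hif1a and Egln1, higher. That fit called 4219 genes lower and 4033 higher of the 12812 it tested. The median log2 fold change was -0.47 over the members and -0.0036 over all genes. In those 7 genes every MAX restored library lay below every control, which held for 33.8% of all tested genes. Because these 10 were chosen with this comparison known, nothing is read from the counts.

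**Figure D1:**
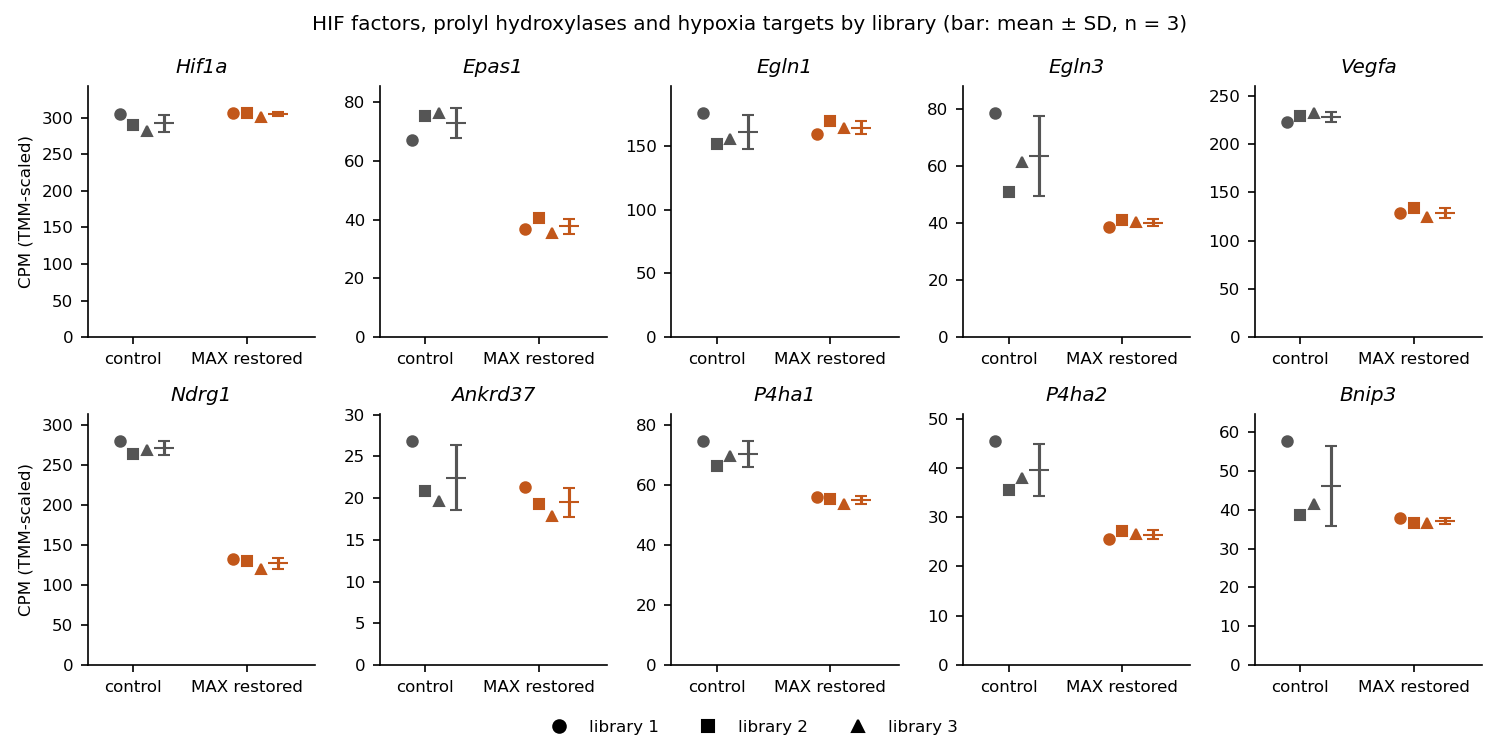
Normalised level of each member (CPM after TMM scaling, linear axis from 0) in the 3 control (grey) and 3 MAX restored (orange) libraries, with library numbers 1, 2 and 3 as circle, square and triangle and the mean ± SD (n = 3) beside them. Ndrg1, Vegfa and Epas1 sit in separate bands, Hif1a and Egln1 overlap, and in Egln3, Ankrd37, P4ha2 and Bnip3 the circle of control 1 stands above the other controls.

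The alpha subunit genes differed from each other. Hif1a, on chromosome 12 of mm9 from 75008854 to 75048517, was measured at 305, 291 and 282 CPM in controls 1, 2 and 3 and at 306, 306 and 301 CPM in MAX restored libraries 1, 2 and 3. The MAX restored libraries fell within or just above the controls' range, at a log2 fold change of 0.06 (SE 0.04). Without control 1 it was 0.09 (SE 0.03), and Hif1a was called higher. Epas1, on chromosome 17 from 87153204 to 87232750, stood at 67.1, 75.2 and 76.3 CPM in the controls and 36.9, 40.6 and 35.6 CPM with MAX restored. Every MAX restored library lay well below every control, a 1.93-fold lower level (log2 -0.95, SE 0.06). Control 1 had the lowest Epas1 level of the controls.

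Expressed per kilobase of exon, so that genes of unequal length can be compared, Hif1a stood at 61.4 ± 2.44 CPM per kb in the controls and Epas1 at 13.6 ± 0.938 (SD, n = 3). With MAX restored these levels were 63.9 ± 0.600 and 7.04 ± 0.486 CPM per kb (SD, n = 3). The Hif1a level was therefore 4.54 ± 0.506 times that of Epas1 in the controls and 9.11 ± 0.560 times with MAX restored (SD, n = 3). The ratio lay between 4.16 and 5.11 over the control libraries and between 8.47 and 9.52 over the MAX restored ones, without overlap.

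The oxygen sensors showed a like split. EGLN1 (PHD2) is the main hydroxylase that keeps HIF-1 alpha low in oxygenated cells. Its gene, on chromosome 8 of mm9 from 127432487 to 127473154, was at 176, 151 and 156 CPM in the controls and 160, 170 and 164 CPM with MAX restored. The groups overlapped, with control 1 the highest of all 6 libraries, at a log2 fold change of 0.03 (SE 0.05). Controls 2 and 3 lay below all MAX restored libraries, and without control 1 the value was 0.10 (SE 0.04) and Egln1 was called higher. Egln3 (PHD3), the hypoxia-inducible paralog, lies on chromosome 12 from 55279968 to 55304861. It was at 78.5, 50.7 and 61.4 CPM in the controls and 38.7, 41.1 and 40.4 CPM with MAX restored, a 1.59-fold lower level (log2 -0.66, SE 0.10). The controls varied widely and the MAX restored libraries little, yet the lowest control was above the highest of them. Without control 1 the Egln3 difference was 1.40-fold (log2 -0.49, SE 0.07). Per kilobase, the Egln1 level was 1.97 ± 0.284 times that of Egln3 in the controls and 3.12 ± 0.0282 times with MAX restored (SD, n = 3).

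**Figure D2:**
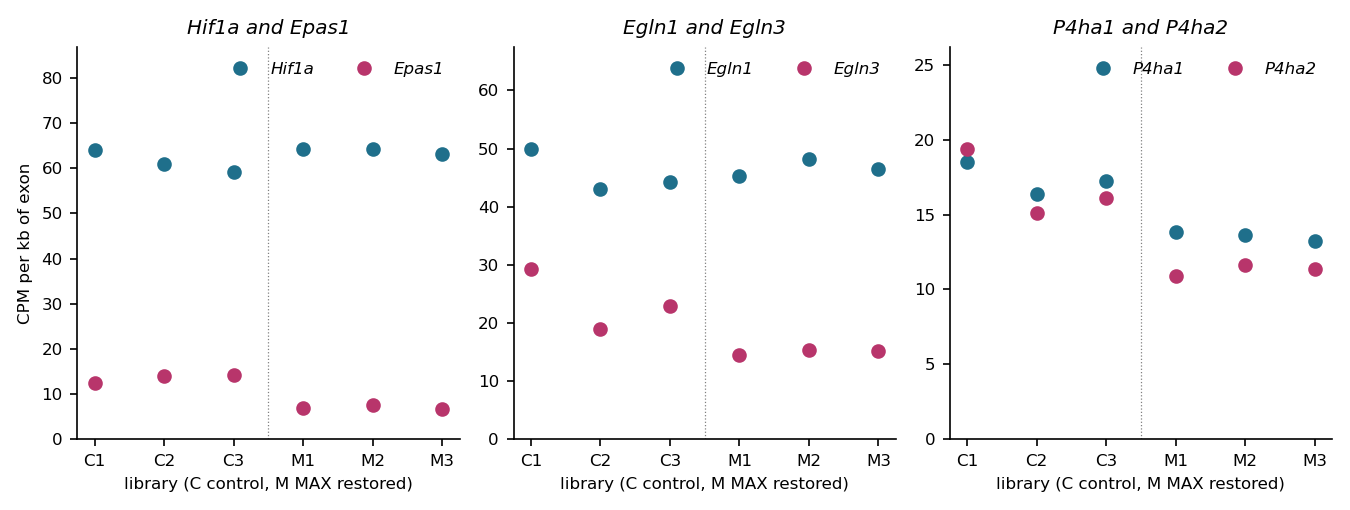
Level per kilobase of exon (CPM per kb, linear axis from 0) of the 3 pairs of related genes in control libraries C1 to C3 and MAX restored libraries M1 to M3, each point 1 library. Hif1a stays near 60 CPM per kb while Epas1 is lower in M1 to M3; Egln1 and Egln3 part in the same way, and P4ha1 and P4ha2 are both lower.

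Among the targets, the largest difference was in Ndrg1, a stress- and differentiation-associated gene, on chromosome 15 of mm9 from 66760880 to 66801203. It stood at 280, 263 and 269 CPM in controls 1, 2 and 3 and at 132, 129 and 119 CPM in MAX restored libraries 1, 2 and 3. The groups lay far apart with little spread inside either, a 2.13-fold lower level (log2 -1.09, SE 0.05). In the controls Ndrg1 was the most abundant member, at 93.7 ± 2.99 CPM per kb, and with MAX restored it came to 43.9 ± 2.29 CPM per kb, below Hif1a and overlapping with Egln1 (SD, n = 3).

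Vegfa, the main angiogenic ligand of the VEGF family, lies on chromosome 17 from 46153943 to 46169326. Its levels were 223, 229 and 232 CPM in the controls and 129, 134 and 124 CPM with MAX restored. The controls agreed closely, control 1 among them, and the level with MAX restored was 1.77-fold lower (log2 -0.82, SE 0.05). The counts are summed over all splice forms, so that the long and short VEGF-A isoforms are not separated. For Ndrg1, Vegfa and Epas1 the fold was similar without control 1, at 2.10, 1.79 and 2.01.

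P4ha1 and P4ha2 encode the alternative catalytic subunits of collagen prolyl 4-hydroxylase, the enzyme of the endoplasmic reticulum that makes the collagen helix stable. P4ha1, on chromosome 10 of mm9 from 58786044 to 58836052, stood at 74.8, 66.3 and 69.6 CPM in the controls and 56.0, 55.2 and 53.5 CPM with MAX restored, 1.28-fold lower (log2 -0.35, SE 0.05). P4ha2, on chromosome 11 from 53914426 to 53945169, stood at 45.5, 35.5 and 37.8 CPM against 25.5, 27.2 and 26.6 CPM, a log2 fold change of -0.58 (SE 0.08). In both genes all MAX restored libraries lay under all controls, and control 1 was the highest library. Per kilobase the subunits were about equally abundant in the controls, at 17.4 ± 1.06 and 16.9 ± 2.24 CPM per kb, with overlapping libraries. With MAX restored they were at 13.6 ± 0.315 and 11.3 ± 0.358 CPM per kb (SD, n = 3), and P4ha1 was the higher in each library.

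The smallest differences among the targets were in Bnip3 and Ankrd37, and control 1 bears on both. Bnip3, a mitochondrial outer membrane receptor for mitophagy, lies on chromosome 7 of mm9 from 146082519 to 146101189. It stood at 57.8, 38.7 and 41.5 CPM in controls 1, 2 and 3 and at 37.9, 36.7 and 36.5 CPM with MAX restored. The groups did not overlap, but only control 1 was far from the rest. The log2 fold change was -0.31 (SE 0.10) over all libraries and -0.12 (SE 0.07) without control 1, when the gene was no longer called. The call was also lost without MAX restored 2, without MAX restored 3 and in DESeq2.

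Ankrd37, a short ankyrin-repeat gene on chromosome 8 from 47082262 to 47085204, stood at 26.9, 20.8 and 19.6 CPM in the controls and 21.3, 19.3 and 17.9 CPM with MAX restored. The groups overlapped, and the log2 fold change of -0.20 (SE 0.11) became -0.05 (SE 0.10) without control 1. Of the 14 alternatives it was called lower in 1, without control 3 (log2 -0.29). Its exons share 49 of 904 bases with Ufsp2 on the opposite strand, and the counts do not use strand. Ufsp2 itself was at 50.1 to 53.1 CPM in the controls and 46.2 to 53.7 CPM with MAX restored.

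Control 1 was above both other controls in 8 of the 10 members, where this was so for 36.2% of all tested genes. It exceeded them by at least 1.2-fold of their mean in 4 members, against 5.99% of all genes. The 4 were Bnip3 (1.44-fold), Egln3 (1.41-fold), Ankrd37 (1.33-fold) and P4ha2 (1.24-fold). The others above both controls were Egln1 at 1.15-fold, P4ha1 at 1.10-fold, Hif1a at 1.07-fold and Ndrg1 at 1.05-fold, while Vegfa (0.966) and Epas1 (0.886) were below their mean. Here 1 library is set against 2, so there is no test, and the members were chosen with this pattern known. Among 34 other non-glycolytic HIF targets tested, control 1 was above both controls in 18 and by at least 1.2-fold in 5, among 20 glycolytic targets in 14 and 3, and among 22 genes of the HIF machinery in 10 and 0. The excess of Rn45s reads in the same library is given above; its part in these values was not tested.

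**Figure D3:**
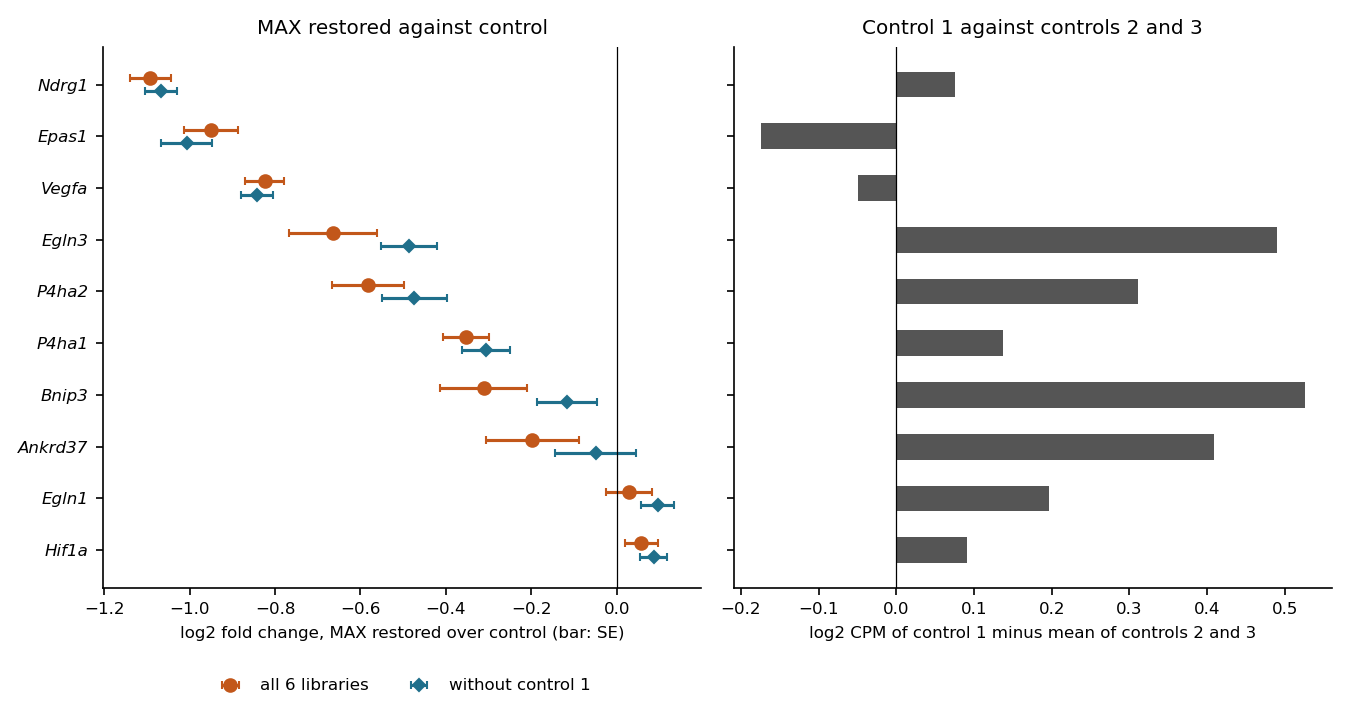
Left, log2 fold change of MAX restored over control for each member with its SE, from all 6 libraries (circles) and without control 1 (diamonds). Right, log2 CPM of control 1 minus the mean of controls 2 and 3. Ndrg1, Epas1 and Vegfa stay between -1.09 and -0.82 from either set, whereas Bnip3 moves from -0.31 to -0.12 and Ankrd37 from -0.20 to -0.05, and these are among the genes with the longest bars on the right.

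The order of the levels also shifted. Per kilobase, the controls ranked Ndrg1, Hif1a, Vegfa, Egln1, Bnip3, Ankrd37, Egln3, P4ha1, P4ha2 and Epas1 from high to low. The libraries of Bnip3 (26.2 ± 5.87 CPM per kb), Ankrd37 (24.8 ± 4.32) and Egln3 (23.7 ± 5.24) overlapped, as did those of the 2 collagen hydroxylase genes (SD, n = 3). Vegfa went from 54.7 ± 1.16 to 30.9 ± 1.16 CPM per kb, moving from above Egln1 to below it, while Hif1a became the highest member and Epas1 remained the lowest (SD, n = 3).

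The rest of the oxygen-sensing machinery was called in both directions. Of 22 genes, all tested, 8 rose, 9 fell and 5 did not pass, with a median log2 fold change of 0.01. The shares over the whole table were 31.2% higher and 32.3% lower. Arnt2, a beta subunit found mainly in neural cells, rose from 112 ± 1.91 to 158 ± 5.29 CPM (SD, n = 3; log2 0.49, SE 0.05, edgeR adjusted p = 2.25e-08). The coactivator gene Crebbp rose by log2 0.41 (adjusted p = 9.06e-06 in edgeR), Rbx1, the RING subunit of the VHL ligase, by 0.31, and the third alpha subunit gene Hif3a, at 3.36 to 4.51 CPM, by 0.42. Hif3a was called at an edgeR adjusted p of 0.0421 and lost the call when any library other than MAX restored 2 was left out, in DESeq2, in limma voom, with no filter on low counts and with the replicate number as a block (adjusted p = 0.0562 in edgeR). Gnb2l1, whose product RACK1 promotes oxygen-independent breakdown of HIF-1 alpha, fell by 0.64, and Siah2, a ligase that destroys EGLN proteins, fell by 0.39. Vhl fell by log2 0.33 (SE 0.06, edgeR adjusted p = 9.48e-05), from between 46.5 and 50.9 CPM in the controls to between 37.1 and 40.5 CPM, and the JmjC-domain gene Jmjd6 by 0.35. Arnt, the common beta subunit, was at log2 0.03 and the third hydroxylase gene Egln2 at 0.02, and neither passed.

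Non-glycolytic HIF targets outside the members likewise went both ways. Of 49 listed, 34 had enough counts to be tested, and 14 rose, 13 fell and 7 did not pass, with a median log2 fold change of 0.04. The shares were 41.2% higher and 38.2% lower, against 31.2% and 32.3% over all tested genes. Lox, the collagen cross-linking lysyl oxidase, fell 3.44-fold from 25.3 ± 1.82 to 7.34 ± 0.226 CPM, and Stc2, a secreted glycoprotein hormone, 2.62-fold from 8.28 ± 0.963 to 3.14 ± 0.642 CPM (SD, n = 3). Their edgeR adjusted p was 1.08e-11 and 6.56e-07. Ero1l, an oxidase of the endoplasmic reticulum, fell 1.86-fold and the MAX partner gene Mxi1 1.72-fold. Stc1, the paralog of Stc2, rose 4.34-fold from 3.88 ± 0.533 to 16.9 ± 0.319 CPM (SD, n = 3; edgeR adjusted p = 2.38e-11). The transferrin receptor gene Tfrc rose 2.15-fold, the chemokine receptor gene Cxcr4 1.77-fold and the histone demethylase gene Kdm4b by log2 0.73. Among classical targets too low to test, Car9 had 7 counts in all controls and 18 in all MAX restored libraries, Adm 22 and 4, and Epo and Edn1 none in any library.

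**Figure D4:**
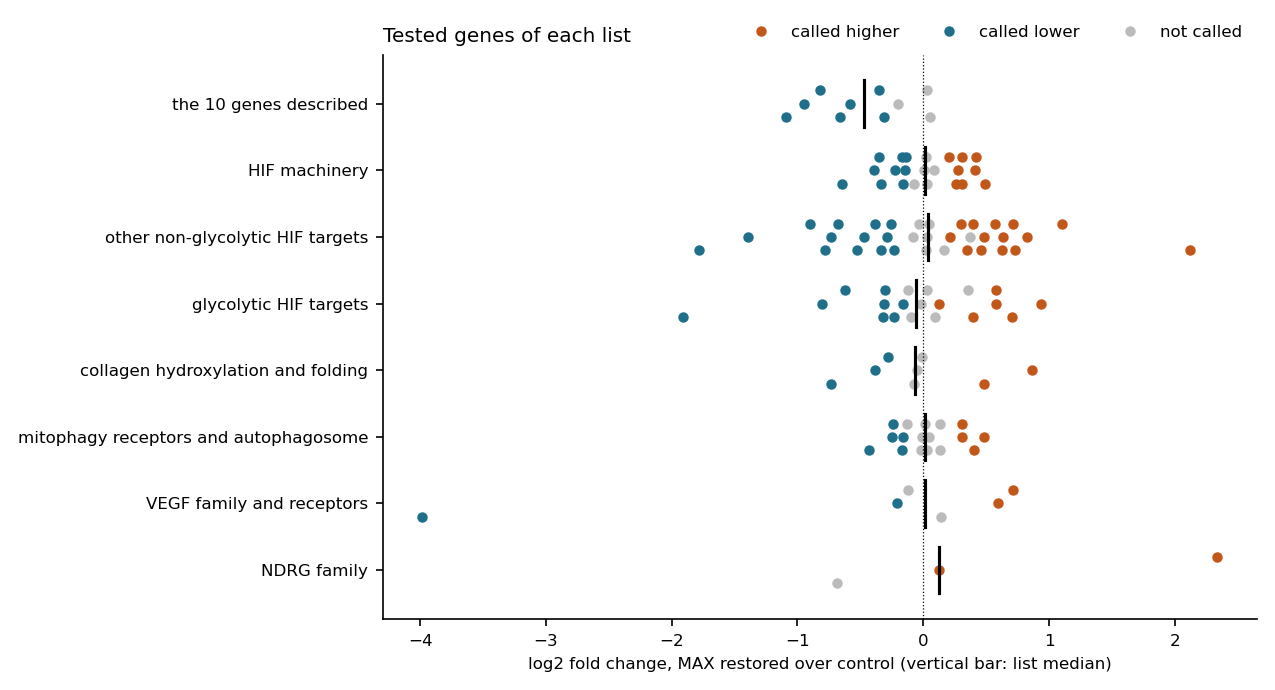
Log2 fold change of MAX restored over control for every tested gene of each list, coloured by the call over all genes, with a vertical bar at the list median. The 10 genes described were chosen with these values known; their median is -0.47, while the other lists have medians between -0.06 and 0.12 and hold genes on both sides of 0.

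Genes that act beside single members were set next to them. Counts called in these short lists stand beside 31.2% higher and 32.3% lower over all tested genes. For the collagen hydroxylases, 8 of 11 listed genes were tested, of which 2 rose and 3 fell. P4hb, the shared beta subunit of the enzyme, was abundant and did not pass (959 and 952 CPM, log2 -0.01). The lysyl hydroxylase gene Plod2 fell 1.66-fold while its paralog Plod1 rose by log2 0.48. The prolyl 3-hydroxylase genes P3h1 (log2 -0.38) and P3h3 (0.86, at 1.66 to 3.03 CPM) were lower and higher, and Ppib, a cyclophilin of the same complex, fell by 0.28. P3h1 lost its call without control 2, control 3, MAX restored 1 or MAX restored 2, and in DESeq2.

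For Vegfa, 6 of 9 related genes were tested. Placental growth factor gene Pgf rose 1.64-fold from 64.6 ± 4.26 to 106 ± 4.08 CPM and the co-receptor gene Nrp1 1.51-fold from 136 ± 6.30 to 205 ± 3.82 CPM (SD, n = 3), with edgeR adjusted p of 4.74e-10 and 1.41e-09. Vegfb fell by log2 0.21. Nrp2 fell, from 24, 28 and 26 counts in the controls to 1, 3 and 1, a ratio of 17.0 with a 95% exact binomial counting interval from 6.96 to 53.7. The signalling receptors Flt1 and Kdr had 3 and 1 counts over the controls and 6 and 2 over the MAX restored libraries, too few to test.

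For Bnip3, 17 of 18 mitophagy and autophagosome genes were tested, with 4 higher and 5 lower. The mitophagy kinase gene Pink1 rose by log2 0.48, the receptor gene Fkbp8 by 0.40, and Map1lc3b and Tax1bp1 by 0.31 each. Phb2, an inner membrane receptor, fell by 0.43, Sqstm1 by 0.25, Gabarapl1 by 0.24, Bcl2l13 by 0.17 and Gabarap by 0.16. Bnip3l, the paralog of Bnip3, did not pass (89.9 and 92.0 CPM, log2 0.03), but without control 1 it was at log2 0.15 and was called higher.

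For Ndrg1, all 3 paralogs were tested, and 2 were called higher. Ndrg4, a family member of neurons, rose 5.06-fold from 6.20 ± 0.875 to 31.3 ± 1.74 CPM (SD, n = 3; log2 2.34, SE 0.11, edgeR adjusted p = 3.46e-13), opposite in sign to Ndrg1. Ndrg3 rose by log2 0.12 (edgeR adjusted p = 0.0401), a call lost in DESeq2, with no filter on low counts and without control 1 (log2 0.07), control 2, MAX restored 1 or MAX restored 3. Ndrg2, at 2.32 and 1.40 CPM, was at log2 -0.68 and did not pass. In this list 0 genes were lower by edgeR, also at an unadjusted p under 0.05, and 0 by DESeq2 or limma voom. Ndrg2 was called lower with the replicate number as a block (log2 -0.71, edgeR adjusted p = 0.0305), with no filter on low counts, without control 2 (log2 -0.86) and without MAX restored 1 (log2 -1.16).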

How the data were processed

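Messenger RNA was measured in 6 libraries, grouped by their titles. The authors deposited raw counts of reads per gene symbol, 1 file per library. Per the file headers, featureCounts 1.6.0 counted reads without strand against UCSC mm9 exons; bcl2fastq 1.8.4 and STAR 2.5.2a also appear in the submitters' processing notes. Counts therefore pool a gene's isoforms and do not separate the strands.

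Of 24391 annotated genes, 12664 passed filterByExpr (minimum count 10). All were fitted with edgeR 4.0.16 in R 4.3.3, with TMM scaling, the quasi-likelihood test on group alone, two-sided, and Benjamini-Hochberg adjustment over all genes tested, called under 0.05. The SE is the absolute log2 fold change divided by the square root of F. The script was tested on simulated data. Alternatives were 3 other scalings, DESeq2 1.42.0, limma 3.58.1 (voom), 2 other filters, the replicate number as a block and leaving out each library.

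The members and the gene lists were chosen with earlier results of these data known, so the members' fold changes carry no p-value. Adjusted p-values given for genes of the other lists come from the fit over all genes. Because those lists were chosen in the same way, the p-values do not test the lists. Genes named from other lists follow a rule: up to 4 called genes in each direction per list, by largest change among those averaging log2 CPM 1 or more, and every called gene where 5 or fewer were called. Ndrg2, Bnip3l, Egln2, Arnt, P4hb, Ufsp2, Vwf and the genes too low to test fall outside it and were chosen after their values were seen. Promoter sequences are from RefSeq on GRCm38.p6, a different build from the files' mm9. Protein identity of the paralogs, also planned, was not analysed here. Each member had between 653 and 10156 counts per group.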

Additional observations from a re-analysis of the deposited data

How the results depend on the processing

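Over 14 alternatives for each of the 10 members, 133 of 140 values stayed on the same side of the threshold, 4 lost a call and 3 gained one. For the tested genes of the other lists, cell type markers left out, 1421 values stayed, 38 lost a call and 25 gained one. The 4 lost calls were all of Bnip3, whose log2 fold change ranged from -0.42 to -0.12: in DESeq2, without control 1, and without MAX restored 2 or 3. Calls were gained by Hif1a and Egln1 without control 1, which took the members called higher from 0 to 2, and by Ankrd37 without control 3. The value of Egln1 ranged from -0.02 to 0.10, on both sides of 0. The number of members called lower lay between 6 and 8, and their median between -0.54 and -0.39. Over all genes the fewest called lower were 3576, in DESeq2, and the most 4260, with no filter on low counts. With the replicate number as a block, 7 members were called lower and 0 higher; over all genes the block gave 3941 higher and 4093 lower against 3948 and 4092 without it. In the NDRG list the block gave 1 called lower (Ndrg2), as did dropping the filter on low counts, and DESeq2 and dropping the filter gave 1 called higher. When single libraries were left out, 1 to 2 NDRG genes were called higher and 0 to 1 lower. Whether the numbers pair the libraries is not known. Deviations of same-numbered libraries from their group mean correlated at 0.00, 0.04 and -0.02, and the libraries did not each correlate best with their own number. With 3 libraries per group, such correlations cannot show whether same-numbered libraries were handled together. At 1.5-fold in place of 1.2-fold, control 1 exceeded both other controls in 0 members, against 1.18% of all tested genes. Counting any difference, it did so in 8 members, against 36.2% of all tested genes. Alternatives with upper-quartile scaling shifted the median over all genes by under 0.1, to 0.02. Levels near 1 CPM are limited by depth.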
